A study of Mus musculus with 13 samples.

Results

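Genes whose proteins bind, move or break down amyloid beta were read in hippocampal RNA of 5xFAD mice. They were Col25a1, Clu, Lrp1, Sorl1, Picalm, Bin1, Mme, Ece1 and Ide. These 9 genes of the 36287 in the deposited table were chosen by name, with earlier results of the same libraries known, and all 9 were among the 22065 genes that passed the filter on low counts. Col25a1 had already been seen among the genes with the smallest p-values in Aducanumab against saline, so its values in that comparison, and in the other comparison that uses the Aducanumab libraries, are given as a description without a test. ACLP-NT against saline shares the saline libraries with the comparison in which Col25a1 had been seen.

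The 13 libraries fall into 3 groups that differ in treatment. Saline was given to 4 mice (libraries 18, 19, 32 and 38). The amyloid beta antibody Aducanumab was given to 4 (24, 50, 56 and 58) and ACLP-NT to 5 (17, 27, 49, 53 and 55). ACLP-NT is a code name, and the series title speaks of a nanomedicine directed at the lysosomes of microglia. All groups share the 5xFAD genotype, in which mutant human transgenes of familial Alzheimer's disease are expressed in neurons from the Thy1 promoter. Wild-type mice were not analysed here, and the saline group serves as the control throughout. Strain background, sex, age, dose, treatment time and batch are not given in the labels, and nothing in them says whether libraries with different numbers shared a litter or a day.

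Amyloid beta is cut from the amyloid precursor protein, largely by neurons, and leaves the tissue by several routes. Extracellular chaperones such as clusterin hold it in solution or carry it, receptors of the LDL receptor family take it into cells or across vessel walls, clathrin adaptors steer the endosomes it travels in, and zinc metalloproteases cut it. Transcripts of these genes say how much of each messenger is present, not how much peptide is cleared.

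The 3 degrading enzymes belong to 2 families of zinc protease that differ in the order of their zinc-binding residues. Neprilysin (Mme) and endothelin-converting enzyme 1 (Ece1) have His-Glu-X-X-His, while insulin-degrading enzyme (Ide) has the inverted order His-X-X-Glu-His. The coding sequence around each motif is shown because the enzymes are compared below, with the 5 motif codons in capitals. Each comes from the longest open reading frame among the GENCODE M21 protein-coding transcripts of the gene, on GRCm38.
Mme: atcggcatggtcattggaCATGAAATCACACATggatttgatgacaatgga
Ece1: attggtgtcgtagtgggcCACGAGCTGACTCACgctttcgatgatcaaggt
Ide: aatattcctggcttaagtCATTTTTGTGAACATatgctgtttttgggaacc
The motif lies at codons 584 to 588 of 750 in Mme, 590 to 594 of 753 in Ece1 and 67 to 71 of 978 in Ide. It occurred once in each frame.

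Col25a1 encodes a membrane collagen of neurons, whose shed ectodomain was first isolated from amyloid plaques and is also known as CLAC. A stretch of its collagen domain is shown because Col25a1 had the largest fold change among the members in both comparisons with Aducanumab, with each glycine codon (GGN) in capitals.
Col25a1: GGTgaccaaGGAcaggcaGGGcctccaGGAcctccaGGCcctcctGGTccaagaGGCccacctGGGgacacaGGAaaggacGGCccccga
These are codons 189 to 218 of 666 in the longest open reading frame of GENCODE M21. A glycine codon stands at the head of each triplet, the pattern a collagen triple helix needs. Runs of at least 5 such triplets made up 71.2% of the frame, as 158 triplets in 6 runs, of which the longest held 40.

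Total counts per library ran from 53642019 to 69734713. The hippocampal subfield markers were present in every library (Prox1 at 9.89 to 15.7 FPKM and Fibcd1 at 21.8 to 42.9 FPKM). Choroid plexus markers were summed at 257 to 7831 CPM for saline, 295 to 8153 CPM for Aducanumab and 296 to 7804 CPM for ACLP-NT, so each group held libraries with little and with much of that tissue. The groups were not balanced in it. Of 12 markers, 12 were higher in ACLP-NT than in saline and 12 higher in Aducanumab than in saline. The median log2 fold changes were 0.78 and 0.82, with 0 markers at an unadjusted edgeR p under 0.05. The part of this tissue in the member values was not tested. As these scores fall into separate clusters, no r with the members is given. Aducanumab 58 stood apart from the other libraries of its group, and it had the highest scores of reactive astrocytes (0.56), meningeal fibroblasts (1.36) and blood cells (1.12) of all 13 libraries (a score is the mean centred log2 CPM of a marker list).

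Levels can be compared between genes only per length, so FPKM, fragment counts that the authors scaled to gene length and library total, is used for the order of the members. Clu stood far above the rest with a mean of 308.5 ± 39.1 FPKM (SD, n = 13) and lay above 99.7% of the genes tested. Bin1 followed at 70.4 ± 2.50 FPKM (SD, n = 13), and its lowest library (67.2) was still above the highest of Sorl1 (30.8). Sorl1 (28.6 ± 1.62) and Lrp1 (25.5 ± 0.741) overlapped over the libraries, so their order is not resolved. The same holds for each step from Picalm (9.91 ± 0.556) to Ide (8.43 ± 1.93), from Ide to Ece1 (5.83 ± 0.629) and from Ece1 to Col25a1 (4.91 ± 0.670). Mme was lowest with 0.299 ± 0.0860 FPKM (SD, n = 13), below every other member in every library and above 19.7% of the genes tested.

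**Figure D1:**
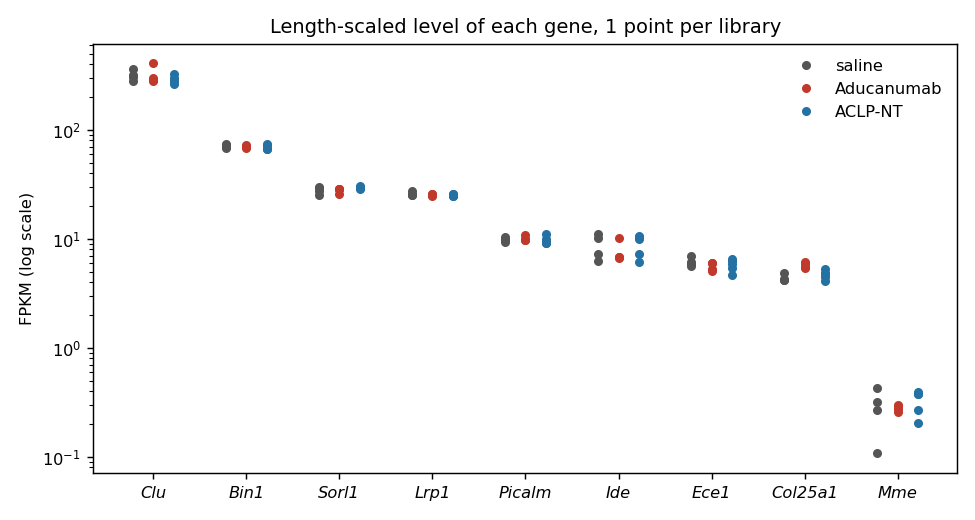
FPKM (vertical log axis) of each gene in the 13 libraries, 1 point per library, coloured by treatment and ordered by mean. Clu lies at 262 to 406 FPKM and Mme at 0.108 to 0.431 FPKM, and the points of the 3 groups overlap within each gene except Col25a1, where the 4 Aducanumab points lie above all others.

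The members also differed in how much they varied between libraries. For 1 gene across libraries, CPM, counts scaled to the library total after TMM scaling, were used, and the coefficient of variation over all 13 libraries was set beside the median of 8.87% over 15052 genes with a mean count of at least 100. Lrp1 varied least at 3.11%, less than all but 1.59% of these genes, followed by Bin1 at 3.88%, Picalm at 4.95% and Sorl1 at 6.03%. Ece1 (10.7%), Clu (11.9%) and Col25a1 (13.4%) were above the median. Ide at 23.2% and Mme at 28.6% varied most. Mme averaged 229.7 counts per library, where counting error alone is 6.60%, while Ide averaged 4254 counts with a counting error of 1.53%, both below the spread seen.

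In ACLP-NT against saline, 4 of the 9 members had a higher mean and 5 a lower one, with a median log2 fold change of -0.0093 beside -0.0015 over all genes tested. With edgeR's quasi-likelihood test, 0 members passed at an adjusted p under 0.05, as did 0% of all genes (0 of 22065). At an unadjusted p under 0.05 there were 0 members, while 2.46% of genes were higher and 3.43% lower. The CPM of both groups overlapped for all 9 members, and 2.26% of all genes did not overlap.

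In Aducanumab against saline, 4 members again had a higher mean and 5 a lower one, with a median of -0.0031 beside 0.0036 over all genes. Again 0 members and 0% of genes passed. Col25a1 was the 1 member at an unadjusted p under 0.05 and the 1 member whose groups did not overlap. Among all genes 2.07% were higher and 2.62% lower at that threshold, and 2.58% did not overlap. Nothing is read from this count, since Col25a1 was chosen with this comparison known.

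Aducanumab against ACLP-NT uses the same Aducanumab libraries. It had 4 members higher and 5 lower with a median of -0.00017 beside 0.0065 over all genes, and 0 members and 0% of genes passed. Col25a1 was the 1 member at an unadjusted p under 0.05 and without overlap, and nothing is read from this count either, since the libraries on which the gene was chosen are part of it. Among all genes 1.71% were higher, 1.53% lower and 1.34% without overlap. The other 8 members ran from -0.21 for Ide to 0.13 for Clu.

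**Figure D2:**
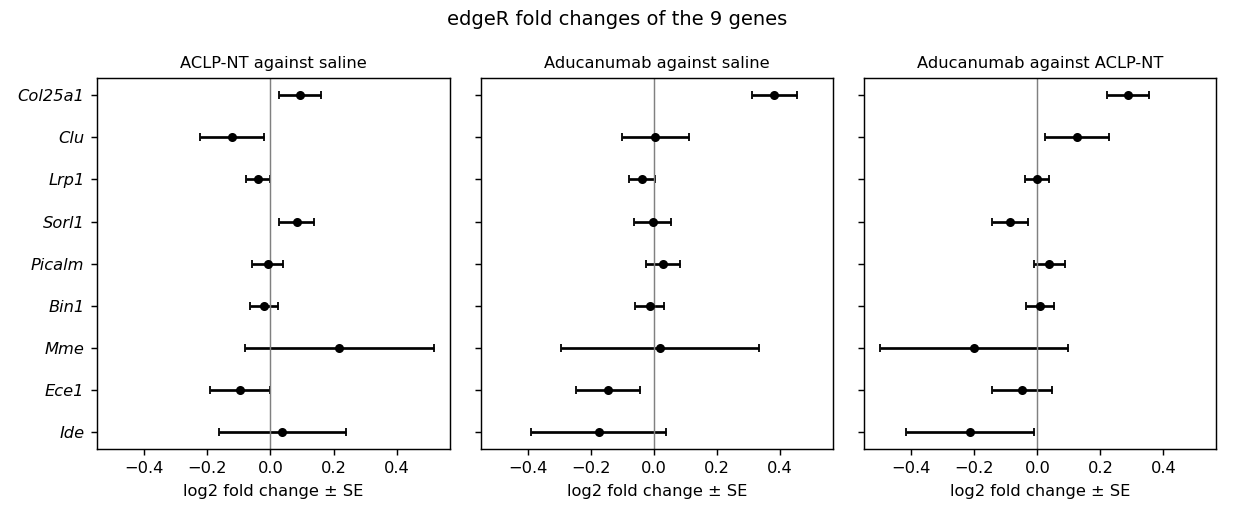
log2 fold changes from edgeR (horizontal axes) with their standard errors (SE, bars) for the 9 genes in the 3 comparisons. Col25a1 lies at 0.38 in Aducanumab against saline and 0.29 in Aducanumab against ACLP-NT, the other genes lie between -0.21 and 0.22, and the bars of Mme and Ide are the widest.

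Among the plaque-binding proteins, Col25a1 (ENSMUSG00000058897, chromosome 3, 129925150 to 130389970, plus strand, as the deposited table prints it, build not given in the sources used here) stood at 59.5, 68.8, 58.8 and 59.6 CPM in saline libraries 18, 19, 32 and 38. It stood at 76.8, 85.5, 77.7 and 81.5 CPM in Aducanumab libraries 24, 50, 56 and 58, and at 68.0, 63.2, 72.7, 57.9 and 67.3 CPM in ACLP-NT libraries 17, 27, 49, 53 and 55. All 4 Aducanumab libraries lay above every other library, and the lowest of them (76.8) was above the highest ACLP-NT library (72.7) and the highest saline library (68.8). The saline and ACLP-NT libraries overlapped.

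The mean of Col25a1 was 61.7 ± 4.79 CPM (SD, n = 4) in saline, 80.4 ± 4.01 CPM (SD, n = 4) in Aducanumab and 65.8 ± 5.56 CPM (SD, n = 5) in ACLP-NT. Its log2 fold change was 0.38 (SE 0.070) in Aducanumab against saline, a 1.303-fold difference, and 0.29 (SE 0.066) in Aducanumab against ACLP-NT, a 1.22-fold difference. When each library was left out in turn, the first ran from 0.35 to 0.44 and the second from 0.24 to 0.32. The gene was chosen on these libraries, so nothing is read from this stability. ACLP-NT against saline was not the comparison on which the gene was chosen, but it uses the same saline libraries, so it is not independent of that choice. The log2 fold change of Col25a1 there was 0.094 (SE 0.067, edgeR adjusted p = 0.922).

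Markers of neighbouring tissue differed between the same groups, and in bulk tissue fewer cells of a type and less RNA per cell cannot be told apart. Of 8 thalamus markers, 8 had a higher mean in Aducanumab than in saline, and their summed CPM was 128 to 140 in the saline libraries, 122 to 278 with Aducanumab and 119 to 186 with ACLP-NT. Of 9 neocortex markers, 9 had a lower mean in Aducanumab, with sums of 169 to 301 CPM for saline, 139 to 194 CPM for Aducanumab and 152 to 223 CPM for ACLP-NT. Aducanumab 50, which had the highest Col25a1 level, also had the highest thalamus score (1.35). The other Aducanumab libraries 24, 56 and 58 scored -0.30, -0.23 and 0.25, where saline ranged from -0.32 to 0.0074. Over the 13 libraries Col25a1 and the thalamus score had Pearson's r = 0.54 and Spearman's rho = 0.28 (adjusted permutation p = 0.247 and 0.686), and r = 0.15 without the 2 libraries farthest from the median score. The part of neighbouring tissue in the Col25a1 difference was not tested.

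Within groups, Col25a1 was higher where markers of the hippocampal subfields were lower. With the group means removed, Pearson's r over the 13 libraries was -0.85 and Spearman's rho -0.85, and r was -0.70 without the 2 libraries farthest from the median score. Of 126 relations between members and marker scores, this 1 alone had an adjusted permutation p under 0.05 with the group means removed (0.0391). The permutation did not allow for the means removed, which makes p too small, so nothing is read from it. Without removing the means, r was -0.15 and rho -0.21, and 0 of 126 passed. The subfield list itself, markers of granule and pyramidal cells, had 8 of 10 members with a higher mean in Aducanumab than in saline, and its part in the Col25a1 difference between groups was not tested.

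Clu (ENSMUSG00000022037, chromosome 14, 66205932 to 66218996, plus strand), the astrocyte-secreted chaperone clusterin, stood at 1141, 1042, 1193 and 1332 CPM in saline 18, 19, 32 and 38. In Aducanumab 24, 50, 56 and 58 it stood at 1074, 1042, 1128 and 1478 CPM, and in ACLP-NT 17, 27, 49, 53 and 55 at 1073, 981.5, 1199, 1110 and 1046 CPM. The groups overlapped, and 1 library, Aducanumab 58, was above all others. On the log2 scale the fold change was -0.12 (SE 0.10, edgeR adjusted p = 0.940) in ACLP-NT against saline and 0.0039 (SE 0.106, adjusted p = 0.9997) in Aducanumab against saline. Without Aducanumab 58 the latter was -0.12, and the value for Aducanumab against ACLP-NT went from 0.13 (SE 0.10) to -0.0013.

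Summed CPM of the 9 reactive astrocyte markers was 1550 to 2460 in the saline libraries, 1603 to 2093 with Aducanumab and 1056 to 1861 with ACLP-NT, and 9 of 9 had a lower mean in ACLP-NT than in saline. Over the 13 libraries Clu and that score had Pearson's r = 0.71 and Spearman's rho = 0.75 (adjusted permutation p = 0.145 and 0.234, 126 relations), and r = 0.72 without the 2 libraries farthest from the median score. Clu also had r = 0.64 and rho = 0.71 with the plaque microglia score, and r = -0.72 and rho = -0.50 with the excitatory neuron score. With the plain astrocyte score it had r = 0.65 and rho = 0.32, and none of these passed. Without the 2 libraries farthest from the median of each score, r was 0.64 with plaque microglia, -0.32 with excitatory neurons and 0.43 with astrocytes. The part of astrocyte content in the Clu values was not tested beyond this.

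The receptors varied little. Lrp1 (ENSMUSG00000040249, chromosome 10, 127374030 to 127457017, minus strand), the large endocytic receptor that moves amyloid beta into cells and across the vessel wall, stood at 481, 526.5, 493.7 and 480.8 CPM in saline 18, 19, 32 and 38. It stood at 493.8, 478.7, 477.5 and 479.7 CPM in Aducanumab 24, 50, 56 and 58, and at 481, 497.8, 467.7, 494.4 and 471.5 CPM in ACLP-NT 17, 27, 49, 53 and 55. The highest and lowest of all 13 libraries differed 1.13-fold, and the groups overlapped. The log2 fold change was -0.038 (SE 0.038) in ACLP-NT against saline and -0.039 (SE 0.041) in Aducanumab against saline, with edgeR adjusted p = 0.950 and 0.9997.

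Sorl1 (ENSMUSG00000049313, chromosome 9, 41876016 to 42035593, minus strand), the sorting receptor that returns the amyloid precursor protein from endosomes and directs amyloid beta to lysosomes, stood at 359.9, 309.0, 366.4 and 330.5 CPM in saline 18, 19, 32 and 38. In Aducanumab 24, 50, 56 and 58 it stood at 353.3, 348.7, 353.0 and 307.9 CPM. The ACLP-NT libraries 17, 27, 49, 53 and 55 gave 348.4, 363.6, 355.8, 374.9 and 366.5 CPM. The ACLP-NT libraries were the least spread, and 2 low libraries, saline 19 and Aducanumab 58, set the lower end of the other groups. Its log2 fold change was 0.084 (SE 0.056, edgeR adjusted p = 0.912) in ACLP-NT against saline, -0.0031 (SE 0.059, adjusted p = 0.9997) in Aducanumab against saline and -0.087 (SE 0.056, adjusted p = 1) in Aducanumab against ACLP-NT. Without Aducanumab 58 the value against saline was 0.044.

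Sorl1 was lowest where markers of excitatory neurons were lowest. Pearson's r with that score was 0.80 and Spearman's rho 0.66 over 13 libraries (adjusted permutation p = 0.0832 and 0.262), r was 0.77 without the 2 libraries farthest from the median score, and 0.77 with group means removed. Its r was -0.76 with the astrocyte score and 0.75 with the score of hippocampal subfields, both with an adjusted permutation p of 0.0832. Without the 2 libraries farthest from the median of each score, r was -0.74 with astrocytes and 0.54 with hippocampal subfields. All 3 missed the threshold of 0.05 over the 126 relations.

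The endocytic adaptors also varied little. Picalm (ENSMUSG00000039361, chromosome 7, 89779421 to 89862673, plus strand), a clathrin assembly protein, stood at 175.3, 158.8, 166.6 and 168.9 CPM in saline 18, 19, 32 and 38. It stood at 165.3, 168.5, 168.9 and 180.4 CPM in Aducanumab 24, 50, 56 and 58 and at 155.7, 158.2, 183.7, 163.0 and 171.0 CPM in ACLP-NT 17, 27, 49, 53 and 55. The lowest and the highest library were both ACLP-NT. Its log2 fold change was -0.0093 (SE 0.050, edgeR adjusted p = 0.992) in ACLP-NT against saline and 0.029 (SE 0.053, adjusted p = 0.9997) in Aducanumab against saline.

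Picalm went with oligodendrocyte markers, with Pearson's r = 0.76 and Spearman's rho = 0.70 over 13 libraries (adjusted permutation p = 0.0832 and 0.234) and r = 0.58 without the 2 libraries farthest from the median score. ACLP-NT 17 and 27, the lowest libraries for Picalm, also had the lowest oligodendrocyte scores (-0.49 in both), and the summed CPM of the 10 markers was 4645 to 5667 in the saline libraries, 4675 to 6054 with Aducanumab and 3677 to 6328 with ACLP-NT. The relation did not pass over the 126 tested.

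Bin1 (ENSMUSG00000024381, chromosome 18, 32510283 to 32568786, plus strand), a membrane-bending protein of neurons and oligodendrocytes, stood at 323.1, 308.2, 331.7 and 310.5 CPM in saline 18, 19, 32 and 38. In Aducanumab 24, 50, 56 and 58 it stood at 326.9, 317.9, 316.2 and 301.0 CPM, and in ACLP-NT 17, 27, 49, 53 and 55 at 302.5, 304.9, 299.6, 325.5 and 336.1 CPM. All 3 groups covered nearly the same range. On the log2 scale the fold change was -0.021 (SE 0.044, edgeR adjusted p = 0.977) in ACLP-NT against saline and -0.013 (SE 0.046, adjusted p = 0.9997) in Aducanumab against saline.

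**Figure D3:**
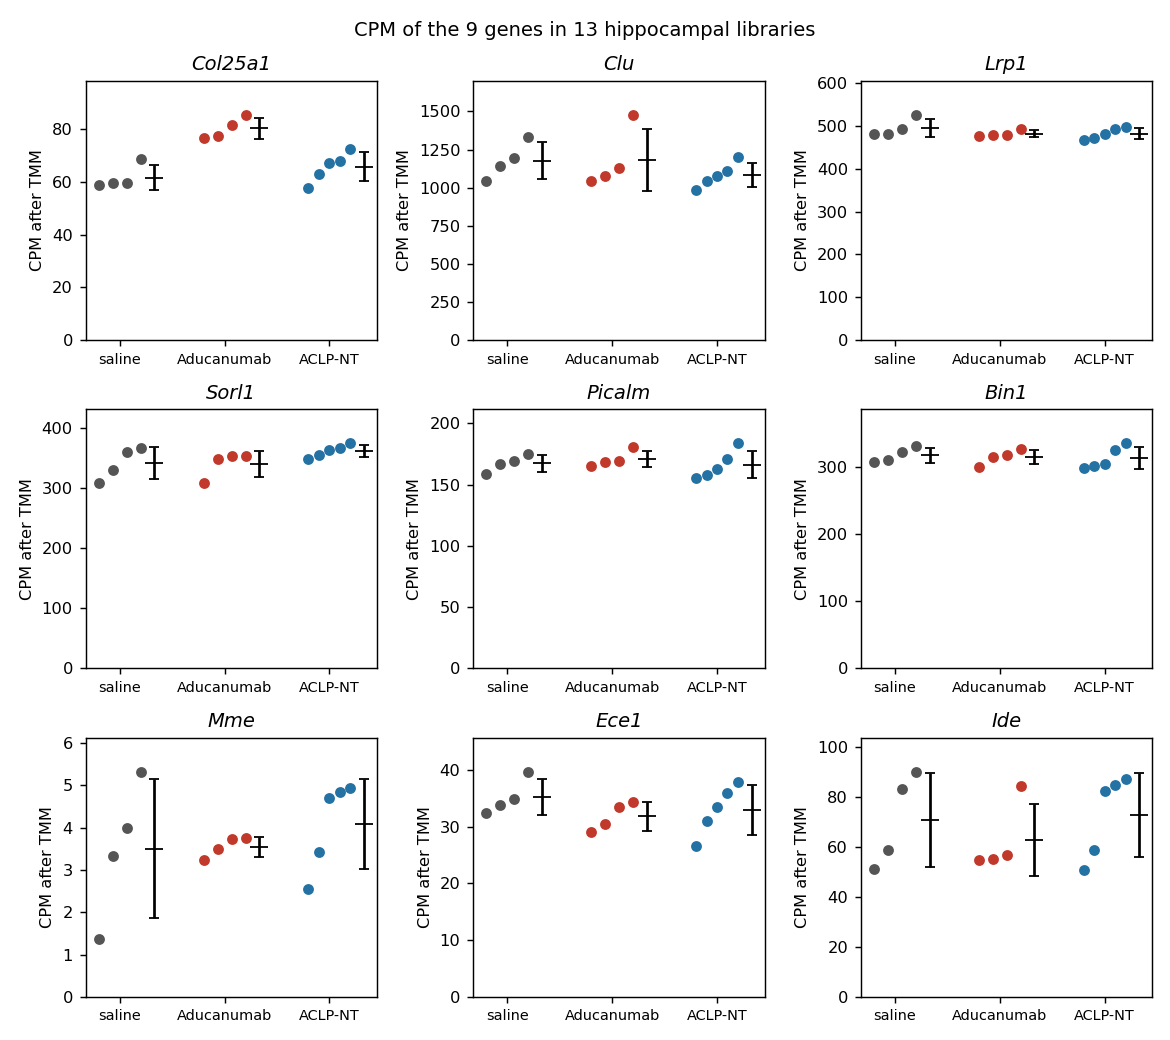
CPM after TMM scaling (vertical axes, starting at 0) of the 9 genes in saline, Aducanumab and ACLP-NT, 1 point per library in rising order, with the group mean and SD as a black bar. Col25a1 lies at 76.8 to 85.5 CPM in Aducanumab and at 72.7 CPM or less elsewhere, Lrp1, Picalm and Bin1 hardly spread, and Ide falls into an upper and a lower set of points in every group.

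The degrading enzymes varied more than the receptors and adaptors. Mme (ENSMUSG00000027820, chromosome 3, 63148958 to 63289044, plus strand), the membrane protease neprilysin, stood at 4.001, 3.338, 1.36 and 5.32 CPM in saline 18, 19, 32 and 38. It stood at 3.24, 3.49, 3.75 and 3.72 CPM in Aducanumab 24, 50, 56 and 58, and at 4.93, 4.83, 2.54, 4.69 and 3.42 CPM in ACLP-NT 17, 27, 49, 53 and 55. The saline libraries held both the lowest and the highest value, 3.91-fold apart, and the Aducanumab libraries lay close together. The log2 fold change was 0.22 (SE 0.299, edgeR adjusted p = 0.966) in ACLP-NT against saline and 0.019 (SE 0.315, adjusted p = 0.9997) in Aducanumab against saline. Without saline 32, which had 91 counts of Mme, they were -0.046 and -0.25.

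Ece1 (ENSMUSG00000057530, chromosome 4, 137589548 to 137692540, plus strand), which cuts amyloid beta mainly inside cells, stood at 33.9, 39.7, 32.4 and 35.0 CPM in saline 18, 19, 32 and 38. In Aducanumab 24, 50, 56 and 58 it stood at 30.4, 34.5, 29.1 and 33.5 CPM. The ACLP-NT libraries 17, 27, 49, 53 and 55 gave 35.9, 37.9, 33.4, 31.0 and 26.5 CPM. The groups overlapped, with the lowest value in ACLP-NT 55 and the highest in saline 19. Its log2 fold change was -0.097 (SE 0.096, edgeR adjusted p = 0.948) in ACLP-NT against saline and -0.15 (SE 0.101, adjusted p = 0.9997) in Aducanumab against saline. Ece1 was higher where the neocortex score was higher (Pearson's r = 0.73, Spearman's rho = 0.77, adjusted permutation p = 0.115 and 0.234, r = 0.72 without the 2 libraries farthest from the median score), and 9 of 9 neocortex markers had a lower mean in each treated group than in saline, with the sums given above.

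Ide (ENSMUSG00000056999, chromosome 19, 37246142 to 37340010, minus strand), the protease that degrades insulin and soluble amyloid beta, fell into a high and a low set of libraries in every treatment group. It stood at 90.2, 51.1, 83.5 and 58.8 CPM in saline 18, 19, 32 and 38, and at 56.6, 54.7, 84.5 and 55.2 CPM in Aducanumab 24, 50, 56 and 58. The ACLP-NT libraries 17, 27, 49, 53 and 55 gave 82.5, 50.7, 58.8, 87.1 and 85.0 CPM. Thus 6 libraries lay between 82.5 and 90.2 CPM and 7 between 50.7 and 58.8 CPM, with a 1.40-fold step between them and none in between. The high set held 2 of 4 saline, 1 of 4 Aducanumab and 3 of 5 ACLP-NT libraries.

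The log2 fold change of Ide was 0.038 (SE 0.203, edgeR adjusted p = 0.992) in ACLP-NT against saline and -0.18 (SE 0.214, adjusted p = 0.9997) in Aducanumab against saline. In Aducanumab against ACLP-NT it was -0.21 (SE 0.203, adjusted p = 1). Of the other members only Mme had a larger SE. In ACLP-NT against saline the sign turned when any of 5 libraries was left out (range -0.088 to 0.17).

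Neighbours of Ide on chromosome 19 showed parts of the same order. Btaf1, a regulator of the TATA-binding protein that lies 3 genes away among those with a mean of at least 1 CPM, had the same 6 libraries on top, at 63.7 to 80.7 CPM against 56.2 to 59.9 CPM in the other 7. Fgfbp3, a carrier of fibroblast growth factors 4 genes away, had 5 of the 6 on top, at 6.71 to 8.97 CPM against 4.69 to 6.79 CPM. The genes Cpeb3 and Marchf5, which lie between Btaf1 and Ide, had 3 of the 6 on top, and their levels overlapped (Cpeb3 at 42.8 to 49.2 CPM against 40.7 to 48.3 CPM). Rpl10-ps6, which lies within the span of Ide, had 3 of the 6 on top, and its levels overlapped (5.56 to 6.70 CPM against 5.44 to 6.43 CPM). On the other side, Kif11 and Hhex had 2 and 4 of the 6 on top, and Exoc6 had 4. A gene of low level, 4931408D14Rik (chromosome 19, 37235740 to 37241516, minus strand), which lies next to the 3′ end of Ide and was picked with its values already known, also had the same 6 on top (0.654 to 1.31 CPM against 0.254 to 0.611 CPM).

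**Figure D4:**
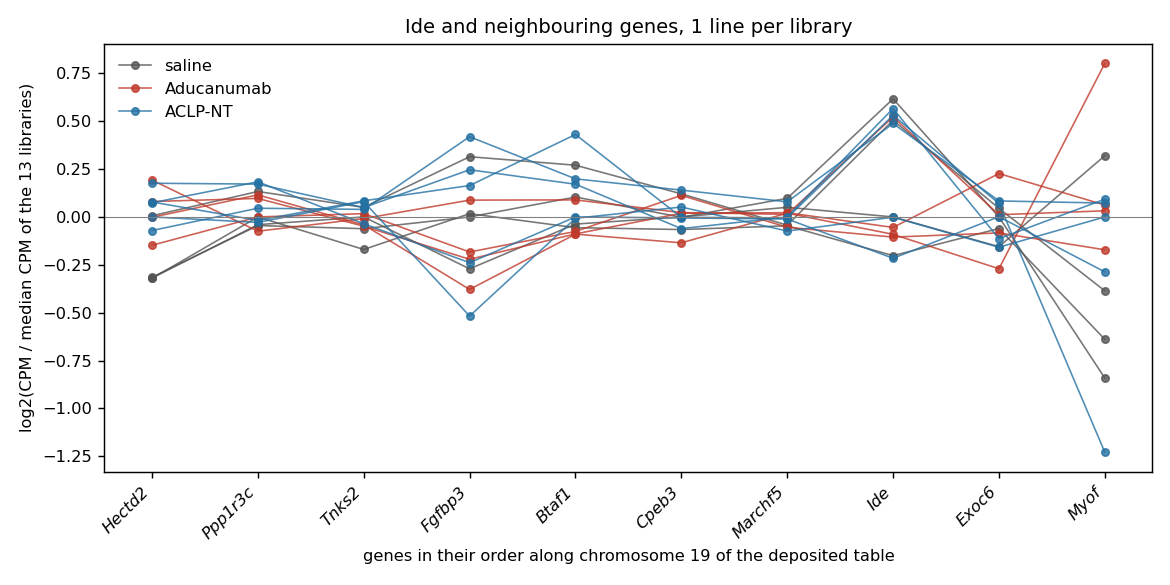
log2 ratio of CPM to the median CPM of the 13 libraries (vertical axis) for Ide and its neighbours with mean counts above 379.4, in their order along chromosome 19 (horizontal axis), 1 line per library coloured by treatment. Rpl10-ps6, with a mean count of 379.4, Kif11 and Hhex are not drawn. At Ide 6 lines, from all 3 treatments, stand apart above the rest, at Btaf1 and Fgfbp3 the same lines are mostly on top, and at Cpeb3, Marchf5 and Exoc6 the lines mix.

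Of 16185 genes with a mean of at least 1 CPM, 18 had these same 6 libraries on top, Ide and Btaf1 among them. The 6 libraries were taken from the step in Ide itself, so its place among these genes is no finding. The step of Btaf1 between the same libraries was 1.06-fold. Wider steps also occurred in other genes. Of 10728 genes with a mean of at least 10 CPM, Ide ranked 64 for the widest step that left at least 4 libraries on either side. As background, a segment of chromosome 19 with Ide and Fgfbp3 is known to vary in copy number among C57BL/6J mice. DNA was not measured here and the strain is not given, so the part of such a segment in these values was not tested.

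Members were also compared with each other. Over the 36 pairs, 0 passed a permutation test of Pearson's r over 13 libraries (smallest adjusted p = 0.224), and 6 were at an unadjusted p under 0.05, of which 2 involve Ide, whose values fall into 2 sets and for which no r is given. The widest relation was between Bin1 and Ece1 (r = -0.67, rho = -0.59, adjusted permutation p = 0.224 and 0.229, r = -0.60 without the 2 libraries farthest from the median of Bin1). With the group means removed, this pair alone came under the threshold (r = -0.79, rho = -0.73, adjusted permutation p = 0.045). As that permutation did not allow for the means removed, p is too small, and nothing is read from it. Lrp1 and Picalm had r = -0.64 and rho = -0.74, and Clu and Picalm r = 0.64 and rho = 0.64, both with an adjusted permutation p of 0.224 for r.

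**Figure D5:**
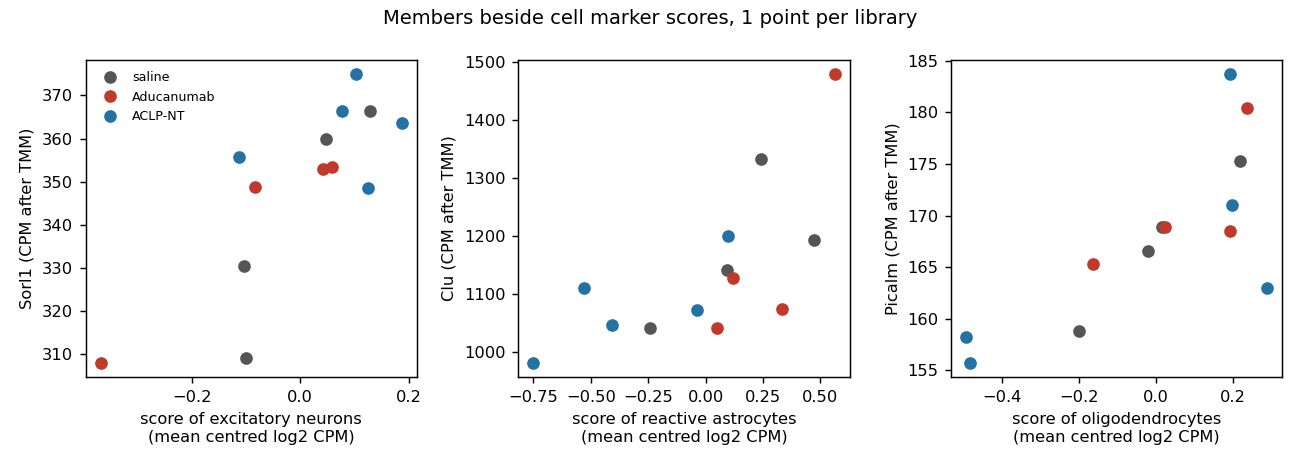
CPM of Sorl1, Clu and Picalm (vertical axes) against scores of excitatory neurons, reactive astrocytes and oligodendrocytes (horizontal axes, mean centred log2 CPM), 1 point per library coloured by treatment. Pearson's r is 0.80, 0.71 and 0.76, none passed over the 126 relations, and Aducanumab 58 lies at the far low end for Sorl1 and the far high end for Clu.

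The genes most like each member were taken from 13488 genes with a mean count of at least 100, by Pearson's r of log2 CPM with group means removed over the 13 libraries. For Col25a1 they were BC065397, Pcdh11x and Ccz1 (r from 0.91 to 0.88). For Clu they were Msn, Pml and Arap1 (0.95 to 0.94), for Lrp1 Cdk10, Kirrel2 and Cfap410 (0.91 to 0.90), and for Sorl1 Wrap73, Gpd1 and Lynx1 (0.96 to 0.93). Picalm was nearest to Fxr1, Ccdc186 and Plxdc2 (0.92 to 0.91), and Bin1 to Fut8, Ttc13 and Vps13c (0.93 to 0.89). Mme was nearest to Nploc4, Ino80c and Naa10 (0.86 to 0.84), and Ece1 to Dhtkd1, Dcun1d5 and Col23a1, another transmembrane collagen (0.94 to 0.92). Ide was nearest to Scrt2, Pum3 and Pwwp2b, with no r given for its 2 sets of values. These are the highest of many values over few libraries and share depth and tissue content.

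Beyond the 9 members, 7 lists hold 129 other genes, of which 124 were tested. They were listed as genes of the same routes, except for the list of transmembrane and related collagens, which was made for comparison with Col25a1. In ACLP-NT against saline, 51 were higher and 73 lower (median log2 fold change -0.025 beside -0.0015 over all genes), and 2 higher and 12 lower were at an unadjusted p under 0.05. In Aducanumab against saline 67 were higher and 57 lower (median 0.012), with 4 and 5 at that threshold. In Aducanumab against ACLP-NT 87 were higher and 37 lower (median 0.040), with 8 and 1. With edgeR, 0 of the 124 passed at an adjusted p under 0.05 in any of the 3 comparisons, and the background shares of all genes are those given above. The groups did not overlap for 3 of the 124 in ACLP-NT against saline (2.26% of all genes). This held for 5 in Aducanumab against saline (2.58% of all genes) and 5 in Aducanumab against ACLP-NT (1.34%). The genes named below were picked by their unadjusted p in these data, so nothing further is read from groups without overlap.

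Among 17 other proteases tested, Plau, the urokinase plasminogen activator, averaged 7.88 CPM in saline (6.72 to 9.15) and 4.81 CPM in ACLP-NT (3.64 to 5.58), a log2 fold change of -0.71 (SE 0.165) without overlap. Ctsb, the lysosomal protease cathepsin B, averaged 746 CPM in saline and 637 CPM in ACLP-NT (log2 -0.23, SE 0.072). Plat, the tissue plasminogen activator, averaged 42.4 CPM in saline, 49.7 CPM in Aducanumab and 43.2 CPM in ACLP-NT, and its lowest Aducanumab library (47.0) lay above all others. Htra1, a secreted serine protease, was higher in both treated groups than in saline (log2 0.14, SE 0.054, in ACLP-NT and 0.15, SE 0.056, in Aducanumab). The peptidase Nln was lower in Aducanumab than in saline (log2 -0.18, SE 0.063) and Pitrm1, a mitochondrial peptidase, higher in Aducanumab than in ACLP-NT (log2 0.12, SE 0.055).

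Inhibitors of these proteases had 8 of 9 members higher in Aducanumab than in ACLP-NT, with a median of 0.24, where 47.6% of all genes were lower and the median of all genes was 0.0065. Markers of reactive astrocytes (9 of 9), meningeal fibroblasts (8 of 8) and blood cells (5 of 5) also had a higher mean in Aducanumab than in ACLP-NT, and their part was not tested. Timp1, an inhibitor of matrix metalloproteases, was low throughout at 0.367 to 0.837 CPM in saline, 1.05 to 1.10 CPM in Aducanumab and 0.299 to 0.776 CPM in ACLP-NT, and the Aducanumab libraries lay above all others. Serpina3n, a marker of reactive astrocytes, averaged 115 CPM in saline, 127 CPM in Aducanumab and 92.5 CPM in ACLP-NT. Serpine2, which inhibits thrombin and the plasminogen activators, averaged 208 CPM in saline and 183 CPM in ACLP-NT (log2 -0.19, SE 0.063) without overlap. Timp1, Serpina3n and C4b, a complement gene, are also among the reactive astrocyte markers, whose sums are given above.

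Of 26 other receptors tested, the sorting receptor Sorcs1 averaged 16.4 CPM in saline, 10.95 CPM in Aducanumab and 10.7 CPM in ACLP-NT (log2 -0.59, SE 0.202, and -0.62, SE 0.190, against saline). The microglial genes Trem2 and Itgam were lower in ACLP-NT than in saline (log2 -0.51, SE 0.183, and -0.34, SE 0.110), and Cd14 higher in Aducanumab than in ACLP-NT (log2 0.37, SE 0.156). All 10 microglia markers and all 10 markers of plaque microglia had a lower mean than saline both in ACLP-NT and in Aducanumab. The plaque microglia markers had sums of 2149 to 2600 CPM in saline and 1930 to 2693 CPM in Aducanumab. In ACLP-NT these sums were 1756 to 2292 CPM, and each treated group overlapped with saline. The microglia markers had sums of 1176 to 1435 CPM in saline, 973.5 to 1206 CPM in Aducanumab and 806 to 1190 CPM in ACLP-NT, and fewer microglia and less RNA per microglia cannot be told apart.

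Of 23 other chaperones and plaque proteins tested, Smoc1, a secreted matrix protein, averaged 19.3 CPM in saline, 20.9 CPM in Aducanumab and 13.6 CPM in ACLP-NT. All 5 ACLP-NT libraries (11.8 to 15.2) lay below all others. The complement genes C4b and C1qa were lower in ACLP-NT than in saline (log2 -0.55, SE 0.196, and -0.39, SE 0.152), and the heparan sulfate proteoglycan Sdc4 was higher in Aducanumab than in saline (log2 0.24, SE 0.092). Bri3, brain protein I3, was lower in Aducanumab (8.07 CPM) than in saline (10.1 CPM) and ACLP-NT (9.53 CPM). It is a different gene from Itm2c, which has also been called BRI3. Bri3 is nevertheless counted in this list and, in both comparisons with Aducanumab, among the genes without overlap.

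Of 14 retromer and sorting genes tested, Snx5 alone was at an unadjusted p under 0.05 in any comparison (log2 -0.11, SE 0.047, in ACLP-NT against saline). Of 31 clathrin, adaptor and membrane-bending genes, Epn2 was higher (log2 0.098, SE 0.043) and Dnm2 lower (log2 -0.11, SE 0.049) in ACLP-NT than in saline, and Rin3 higher in Aducanumab than in ACLP-NT (log2 0.40, SE 0.183). The list of transmembrane and related collagens, made for comparison with Col25a1, also holds the protease gene Furin. Of its 6 genes, 0 were at that threshold in any comparison. Their median was 0.089 in Aducanumab against saline and 0.17 in Aducanumab against ACLP-NT.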

How the data were processed

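Bulk mRNA of 13 hippocampi was captured with oligo(dT) beads, per the labels' protocols. The submitters' processing notes list HISAT2 2.0.4, StringTie 1.3.4d, cutadapt 1.9 and edgeR. The counter, strand setting, build and annotation were not given in the sources used here. Coordinates are those of the table. The deposited table holds raw counts per gene, without normalization, and FPKM, which the authors scaled to gene length and library total, per the file headers.

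Members and lists were chosen with earlier results of these data known. Counts were filtered with filterByExpr, scaled by TMM and fitted with edgeR 4.0.16 (quasi-likelihood test, two-sided, R 4.3.3), all 3 groups in 1 fit, with Benjamini-Hochberg adjustment over 22065 genes and a threshold of 0.05. Each SE was derived from the test, as the size of the log2 fold change over the root of F. Correlations used log2 CPM (prior count 2) and 100000 permutations of the libraries, two-sided. The code of the fit was run on simulated counts, and that of the ranking on a planted near copy of Col25a1, which was bound to rank high. These runs check the code alone and say nothing about the genes named here. Alternatives were no filter, RLE and upper quartile scaling, the compared groups alone, DESeq2 1.42.0, limma 3.58.1 on log2(FPKM + 1) and log2(FPKM + 0.1), each library left out, and for correlations group means removed or FPKM. The text names all members, per list and comparison up to 3 genes at an unadjusted p under 0.05, and the 3 genes most like each member, without predicted genes, Rik clones and pseudogenes. A gene that this rule names is not reported here. Within groups, every pair of libraries differed by more than counting noise (lowest chi-square 13.9 per degree of freedom), and p-values measure the spread between these samples alone. Counting precision is limited for Mme.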

Additional observations from a re-analysis of the deposited data

Results flagged for a closer look

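In 4 of 27 sets of values (9 genes in 3 groups), 1 library stood apart from the rest of its group by Dixon's criterion, which chance meets in about 1 of 20. Col25a1 was at 68.8 CPM in saline 19, where the other saline libraries lay at 58.8 to 59.6 CPM, and still below the lowest Aducanumab library. Lrp1 was at 493.8 CPM in Aducanumab 24, against 477.5 to 479.7 CPM in the others. Sorl1 was at 307.9 CPM in Aducanumab 58, against 348.7 to 353.3 CPM, and that library also had the lowest score of excitatory neurons (-0.37). Ide was at 84.5 CPM in Aducanumab 56, against 54.7 to 56.6 CPM in the others, and within the upper set of libraries found in every group.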

How the results depend on the processing

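The 27 fold changes of the members were recomputed under 20 settings each. Of 540 values, 499 kept their direction and their side of the threshold and 40 changed sign, in 12 of the 27 fold changes, and 1 changed its side of the threshold (Col25a1 with DESeq2 in Aducanumab against saline, from which nothing is read, as the gene was chosen with that comparison known). In 15 none changed sign, among them Col25a1 in all 3 comparisons. Each comparison holds libraries on which Col25a1 was chosen, so nothing is read from its stable sign. Sign changes outside the left-out libraries concerned estimates near 0. Clu in Aducanumab against saline was -0.00057 without the filter, -0.0011 with DESeq2, and -0.0049 with limma on either FPKM scale. Lrp1 in Aducanumab against ACLP-NT was 0.00036 with RLE scaling, 0.0015 with limma on log2(FPKM + 1) and 0.0015 on log2(FPKM + 0.1). The cause was not tested. Over left-out libraries, ACLP-NT against saline ran from -0.044 to 0.014 for Picalm, -0.049 to 0.0023 for Bin1, -0.046 to 0.50 for Mme and -0.088 to 0.17 for Ide. Aducanumab against saline ran from -0.12 to 0.068 for Clu, -0.049 to 0.044 for Sorl1, -0.031 to 0.010 for Bin1 and -0.25 to 0.29 for Mme. Aducanumab against ACLP-NT ran from -0.0013 to 0.18 for Clu, -0.015 to 0.0080 for Lrp1, -0.012 to 0.034 for Bin1 and -0.12 to 0.0027 for Ece1. Over all genes, edgeR called 0 in each comparison, with 1298, 1033 and 716 at an unadjusted p under 0.05, while DESeq2 called 12 in ACLP-NT against saline, 19 in Aducanumab against saline and 3 in Aducanumab against ACLP-NT. Leaving out 1 library moved the count from 0 to 1 without saline 32 (both comparisons with saline) and without ACLP-NT 49 (both with Aducanumab). With group means removed, 1 pair of members and 1 relation with a marker score came under the threshold in place of 0. The permutation did not allow for the means removed, which makes p too small, so neither is read as a pass. No paired analysis was possible because the groups share no replicate number.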
